A study of Homo sapiens with 4 samples.

Results

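Genes that build ribosomes, together with MYC, were examined in poly-A-selected RNA from the HER2-positive breast cancer line SKBR3, with and without raised VIRMA, a scaffold subunit of the m6A (N6-methyladenosine) RNA methyltransferase. The 44 genes were listed by name with earlier results of these data known, so counts over them are descriptions and no list test was run. They were MYC, 7 genes of RNA polymerase I transcription, 3 box C/D and 4 box H/ACA small nucleolar RNP (snoRNP) proteins, 5 abundant nucleolar proteins, 12 small subunit factors and 12 large subunit factors. All 44 were found among the 56271 rows of the count table. The eGFP control group comprised 2 libraries of cells transduced with a lentivirus that carries eGFP under the ubiquitin C promoter, and the VIRMA-overexpressing group 2 libraries of cells given HA-tagged full-length VIRMA linked to eGFP by a p2A sequence. Cells of both groups carried eGFP, were sorted for it and were expanded as populations, so VIRMA itself and other differences between the sorted populations cannot be told apart. Oxygen is uncertain: the labels of both groups mention a hypoxic chamber in the culture protocol, while the methods of the study describe no such step for the sequenced cells.

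Ribosomes are built mainly in the nucleolus. RNA polymerase I copies the ribosomal DNA into a long precursor, snoRNPs guide the methylation and pseudouridylation of that precursor, and a series of processing and assembly factors cut it, fold it and load ribosomal proteins until the small (40S) and large (60S) subunits leave the nucleus. MYC is a transcription factor that, paired with MAX, binds the E-box hexamer and is known to raise many of these genes in growing and cancer cells. The comparison asks how transcripts of this pathway stood when VIRMA was raised.

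The libraries held 81446932 to 86375474 counts. VIRMA, listed under its older symbol KIAA1429, had 710 and 682 counts in the eGFP controls against 3437 and 3460 with the transgene, a 4.89-fold increase (edgeR adjusted p 9.74e-26), in the direction of the labels. The HER2 gene ERBB2 stood at a CPM of 7000 to 7170 in every library. The other SKBR3 and luminal epithelial markers were not level. KRT8 (-0.51 on the log2 scale), EPCAM (-0.39) and KRT19 (-0.12) were lower with raised VIRMA, while GRB7 (0.43) and KRT18 (0.075) were higher. Of 10 leukocyte, fibroblast and endothelial markers, 2 passed the filter on low values, and the summed CPM of the 10 was 21.5 to 23.8 in the controls and 17.7 to 19.3 in the VIRMA-overexpressing libraries. PTPRC, the pan-leukocyte marker, had a CPM of 0 to 0.279. CPM, the count of a gene divided by its TMM-normalized library size, measures a share of the sequenced RNA, so fewer transcripts per cell and fewer expressing cells cannot be told apart.

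MYC and most ribosome biogenesis transcripts were modestly lower in VIRMA-overexpressing cells. At an edgeR adjusted p below 0.05, 28 of the 44 genes (63.6%) were lower and 10 (22.7%) were higher, while of all 12205 tested genes 35.9% were lower and 35.1% higher, or 71.0% in either direction. The median log2 fold change was -0.15 over the 44 genes (a change of -9.6%) and 0.01 over all tested genes. None of the 44 passed the fold-change threshold of the study's methods, a log2 fold change beyond 1, which 2.93% of tested genes passed downward and 4.52% upward. The largest fall was that of GRWD1 (-0.83) and the largest rise that of GNL3 (0.525), both of the large subunit factors. In 31 genes both VIRMA-overexpressing libraries lay below both controls, in 10 they lay above, and in 3 the groups overlapped. Among all tested genes these shares were 41.6% below and 42.7% above, or 84.3% without overlap. Counts by role group or gene list below stand beside the same 35.9% lower and 35.1% higher of all tested genes.

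**Figure D1:**
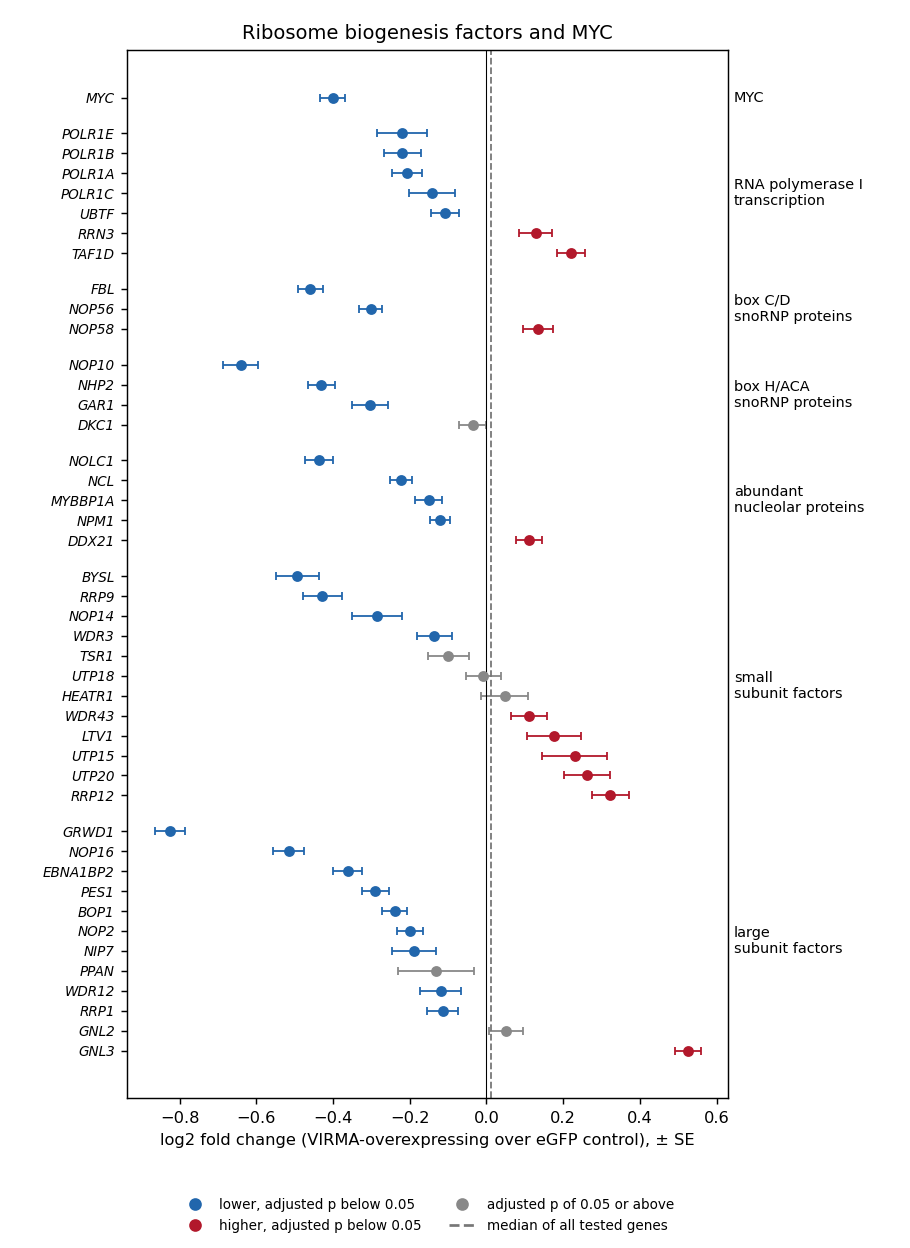
Log2 fold change (x axis, VIRMA-overexpressing over eGFP control, ± SE) of each of the 44 genes (y axis), grouped by role and coloured by the edgeR call; the dashed line is the median of all 12205 tested genes, at 0.01. Blue points, the 28 lower genes, fill most groups, whereas the small subunit factors spread on both sides of 0.

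The balance of calls depended on the scale. Upper-quartile factors gave 21 lower and 11 higher genes, and library totals alone 19 lower and 11 higher, since they shift all tested genes upward by a median of 0.07 and 0.08 on the log2 scale. With the 20568 genes kept by filterByExpr, 29 were lower and 4 higher. Under DESeq2 26 were lower and 8 higher, as POLR1C, WDR12, LTV1 and WDR43 were no longer called (DESeq2 adjusted p 0.0572, 0.0759, 0.0572 and 0.0912). With 2 libraries a group, the smallest two-sided p of an exact permutation test on 1 gene is 0.33, so each call rests on the spread that edgeR shares across genes.

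The order of the levels, given per exonic length as RPKM in the eGFP controls, set the abundant nucleolar and snoRNP proteins at the top. NPM1, a nucleolar chaperone, was highest at 224 RPKM, followed by NOP10 at 145, FBL at 119, NHP2 at 106, NCL at 83.9 and NOP56 at 79.7. MYC came seventh in this order, at 61.4 RPKM. The lowest were UTP15 at 1.94, UTP20 at 2.70 and HEATR1 at 3.08, scaffold proteins of the small subunit processome. The median over the 44 genes was 17.8 RPKM, against 4.87 over all tested genes.

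MYC, on chromosome 8 (GRCh38, 127735434 to 127741434), had 15019 and 15440 counts in the eGFP controls, against 11855 and 11545 with raised VIRMA. On the CPM scale these were 182 and 186 against 139.8 and 139.5, or 184 ± 2.79 against 139.6 ± 0.241 (SD, n = 2). The groups did not overlap, and the gap between them was wider than the spread within either. MYC fell by 24.2% (log2 fold change -0.40, SE 0.0327, edgeR adjusted p 2.95e-13), which placed it at percentile 19.3 of all tested genes from the lowest. It kept its direction and its call in every alternative, with a log2 fold change of -0.44 to -0.32. No exon of MYC overlaps that of another gene in the table.

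Partners and antagonists of MYC did not share a direction. Of 13 tested genes of this network, 4 were lower and 4 higher, and their median log2 fold change was 0.004. MAX, the obligate partner of MYC, which was singled out after its values were seen, rose (0.44, SE 0.0417, edgeR adjusted p 1.11e-11), as did MXD1 (0.535) and MNT (0.49), which pair with MAX and oppose MYC at E-boxes. MXD4 (-0.57) and MXD3 (-0.42), further such antagonists, fell. MYCN and MYCL, the paralogues of MYC, did not pass the filter on low values.

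E-boxes lay around the start sites of many of these genes. The sequence CACGTG, the same on both strands, was searched in RefSeq windows of GRCh38.p14 from 250 bases before to 50 bases after each start site. RefSeq windows were matched for 38 of the 44 genes, not for MYC, POLR1E, NOP58, NOLC1, RRP12 or BOP1. The hexamer was present for 17 of the 38 (44.7%), against 8.77% of all 27305 genes with a window and 13.2% of the 7990 tested genes with one. It was found for 7 of 11 small subunit factors, 5 of 11 large subunit factors and 0 of 6 genes of RNA polymerase I transcription. By a split made after the positions were seen, it began before the start site in 6 of the 38 genes (15.8%, against 12.0% of tested genes), and only from the start site on in the other 11 (28.9%, against 1.20% of tested genes), between base 4 and base 36 of the transcript.

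The presence of the hexamer did not separate lower from higher genes. Of the 17 genes with it, 10 were lower and 5 higher (median -0.20 on the log2 scale), and of the 21 without it 14 were lower and 3 higher (median -0.13). Among the 7990 tested genes with a window the medians were -0.03 with it and -0.03 without, against 0.01 over all tested genes. The 5 windows printed here, 5′ to 3′ with the hexamer in capitals, end at base 10 of the transcript (base 20 for FBL). They come from a gene that fell strongly (NOP10, minus strand, chr15:34343127-34343316), another that fell (RRP9, minus strand, chr3:51941895-51942004), a gene that rose (UTP20, plus strand, chr12:101280005-101280114), a gene that changed least (UTP18, plus strand, chr17:51260446-51260555), and FBL (minus strand, chr19:39846360-39846469), one of the 11 with the hexamer only from the start site on.
NOP10: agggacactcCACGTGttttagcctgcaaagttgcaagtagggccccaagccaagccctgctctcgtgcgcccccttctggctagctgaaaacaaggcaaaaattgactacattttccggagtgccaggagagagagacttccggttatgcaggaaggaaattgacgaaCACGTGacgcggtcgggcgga
RRP9: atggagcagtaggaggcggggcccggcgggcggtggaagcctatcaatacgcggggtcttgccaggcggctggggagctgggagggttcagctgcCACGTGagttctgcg
UTP20: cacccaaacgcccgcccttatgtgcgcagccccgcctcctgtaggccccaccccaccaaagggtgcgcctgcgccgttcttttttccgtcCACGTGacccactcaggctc
UTP18: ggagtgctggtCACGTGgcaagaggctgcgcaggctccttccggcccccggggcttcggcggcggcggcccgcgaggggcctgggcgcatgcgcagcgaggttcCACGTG
FBL: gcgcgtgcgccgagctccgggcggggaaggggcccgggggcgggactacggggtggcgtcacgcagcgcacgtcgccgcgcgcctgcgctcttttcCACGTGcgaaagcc
In NOP10, RRP9 and UTP20 the hexamer begins 11, 5 and 10 bases before the start site, and NOP10 holds a further one 170 bases before it. UTP18 has one copy 89 bases before the start site and another at base 5 of the transcript, and the copy of FBL begins at base 7. A match of letters is not a measured binding site. NOP10, RRP9, UTP20 and FBL changed by -0.64, -0.43, 0.26 and -0.46 on the log2 scale.

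Commonly cited MYC targets outside ribosome assembly were mostly lower, at 15 of 21 tested genes (71.4%, against 35.9% of all tested genes). In that list 2 genes were higher, and the median was -0.33 on the log2 scale. LDHA, the lactate dehydrogenase subunit, fell from 1126 to 619.5 mean CPM (-0.86, edgeR adjusted p 2.8e-25). HSPE1, a mitochondrial chaperonin, had a log2 fold change of -0.85, and CDK4, a kinase of cell-cycle entry, of -0.68. The higher genes were HK2, a hexokinase (0.55), and CAD, of pyrimidine synthesis (0.09). Proliferation markers moved with these results: all 12 were lower, with a median log2 fold change of -0.96 and a range of -2.06 to -0.40. Their part in the values of MYC and the ribosome biogenesis genes was not tested. The study itself reports, from separate growth assays, increased proliferation and colony formation of SKBR3 cells given full-length VIRMA.

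**Figure D2:**
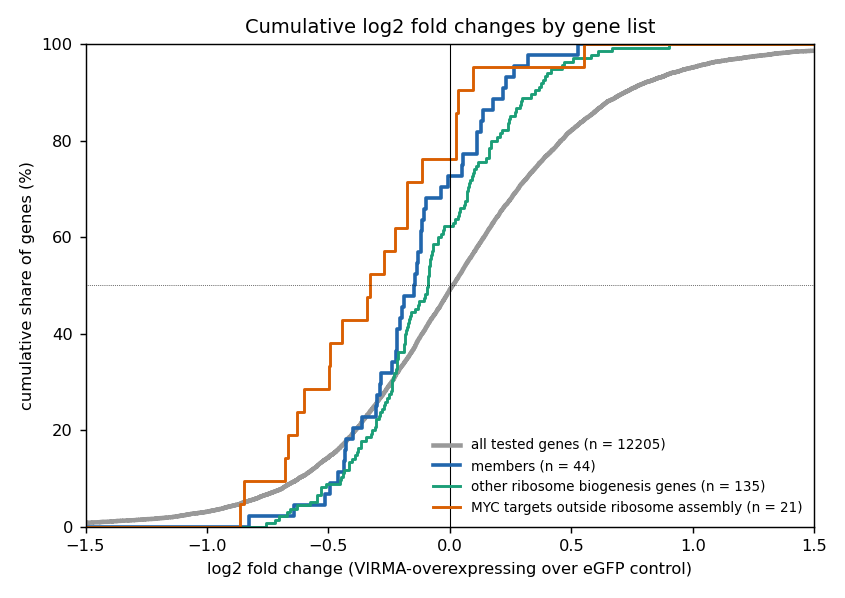
Cumulative share of genes (y axis, %) at or below each log2 fold change (x axis, VIRMA-overexpressing over eGFP control) for all 12205 tested genes, the 44 genes described here, 135 other ribosome biogenesis genes and 21 MYC targets outside ribosome assembly. The medians are 0.01, -0.15, -0.09 and -0.33 in that order, and the curve of the 44 genes is steeper than that of all genes, with no value beyond -0.83 or 0.525.

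RNA polymerase I transcription genes were split between subunits and some of their initiation factors. All 4 polymerase subunits listed were lower: POLR1A, the largest and catalytic subunit (-0.21, SE 0.0391, edgeR adjusted p 1.64e-05), POLR1B, the second largest (-0.22), POLR1C, which RNA polymerase III also uses (-0.14), and POLR1E (-0.22). POLR1E stood at 23.7 CPM in both controls against 20.6 and 20.1, and POLR1B at 44.7 and 45.9 against 38.3 and 39.4. In both genes the groups did not overlap, a separation found in 84.3% of all tested genes, and the gap was wider than the spread within either group. The call of POLR1C was lost with upper-quartile factors, library totals and DESeq2, and that of POLR1E with library totals.

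UBTF, which binds and bends the ribosomal DNA promoter, had the smallest change of the group, from 126 and 120 CPM to 113 and 115 CPM (-0.11, edgeR adjusted p 0.00756), a call lost with upper-quartile factors and with library totals. TAF1D, a subunit of the promoter selectivity factor SL1, rose from 99.8 and 98.4 CPM to 118 and 112 CPM (0.22, SE 0.0368, edgeR adjusted p 2.4e-06). RRN3, which bridges the polymerase to the promoter, rose by 9.3% (0.13, edgeR adjusted p 0.00838). These 2 rises are less certain as counts of 1 gene. RRN3 has 3 pseudogene rows that took 9.87% of the reads counted to the family and were themselves higher, at 622 and 598 counts against 444 and 429. The rise of RRN3 was not called under any of the other 3 filters on low values. TAF1D shares 15.3% of its exonic bases with other rows, among them 7 snoRNA rows that pool copies at several loci, one of them inside TAF1D.

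Other genes of the same machinery gave no common direction, with 1 lower and 2 higher of 8 tested. POLR1G fell (-0.76), while TAF1A (0.61) and TAF1C (0.38), further SL1 subunits, rose. The small subunits that all 3 nuclear RNA polymerases share were lower in 4 of 4 tested genes, led by POLR2L (-0.997, from 259 to 129.7 mean CPM). RNA polymerase III genes were divided, 7 lower and 6 higher of 19 tested.

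Box C/D snoRNPs methylate ribosomal RNA, and 2 of their 3 listed core proteins fell, where 35.9% of all tested genes were lower. FBL, the methyltransferase fibrillarin, went from 254 and 267 CPM to 185 and 193 CPM (-0.46, SE 0.0331, edgeR adjusted p 1.12e-14). NOP56, one of the paired scaffold proteins, went from 437 and 423 CPM to 350 and 347 CPM (-0.30, edgeR adjusted p 3.06e-11). Its partner NOP58 rose slightly, from 73.1 and 73.6 CPM to 81.1 and 80.0 CPM (0.135, SE 0.0389, edgeR adjusted p 0.00242).

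The 2 scaffold transcripts thus moved in opposite directions on this scale. Their ratio needs no scaling between libraries: per exonic length, NOP56 was 3.66 and 3.51 times NOP58 in the controls, against 2.64 and 2.65 times with raised VIRMA. NOP58 was no longer called higher with filterByExpr or without a filter. NOP56 shares 7.5% of its exonic bases with snoRNA rows, and NOP58 1.9%.

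Box H/ACA snoRNPs convert uridine to pseudouridine, and their 3 small proteins fell while the enzyme did not pass the test. NOP10 fell most, from 76.4 and 84.8 CPM to 52.0 and 51.3 CPM, by 35.9% (-0.64, SE 0.0447, edgeR adjusted p 4.2e-15). NHP2 fell from 164 and 157 CPM to 121 and 117 CPM (-0.43, edgeR adjusted p 2.53e-13). GAR1 fell from 51.6 CPM in both controls to 40.9 and 42.8 CPM (-0.30, edgeR adjusted p 6.06e-07).

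DKC1, the pseudouridine synthase dyskerin, stood at 122 and 126 CPM against 122 and 120 CPM (-0.04, SE 0.0349, edgeR adjusted p 0.362). Its sign turned with upper-quartile factors (0.04) and with library totals (0.05). Within each library, the RPKM of NOP10 was 4.75 and 5.11 times that of DKC1 in the controls but 3.24 times with raised VIRMA, in both libraries, and that of NHP2 3.73 and 3.47 times against 2.77 and 2.70 times. The 4 transcripts therefore changed unequally. NHP2 shares 27.4% of its exonic bases with RMND5B on the opposite strand, and NOP10 and GAR1 share none with another gene.

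**Figure D3:**
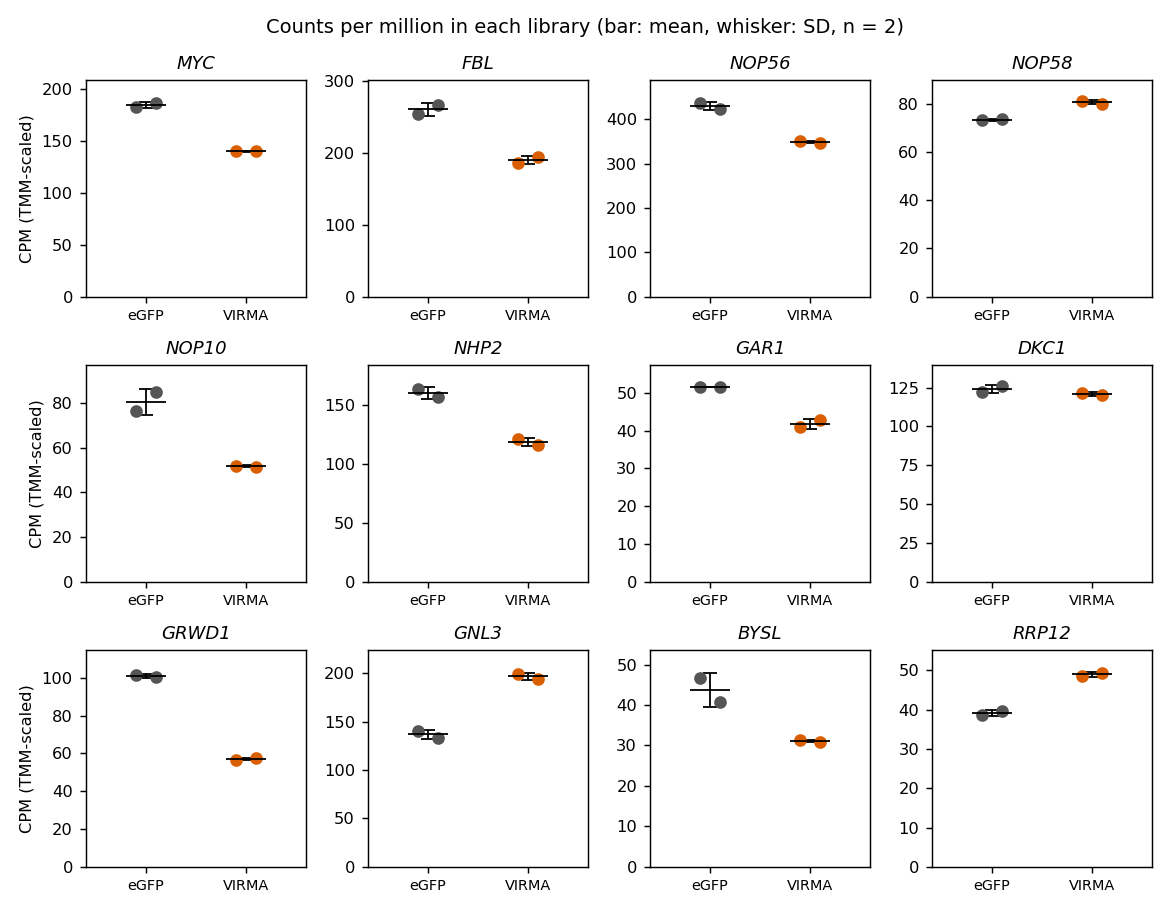
TMM-scaled CPM (y axis, from 0) of 12 genes in each of the 2 eGFP control and 2 VIRMA-overexpressing libraries (points), with the mean (horizontal line) and SD (whisker, n = 2). FBL, NOP56, NOP10, NHP2, GAR1, GRWD1, BYSL and MYC lie lower in the VIRMA-overexpressing libraries, GNL3, RRP12 and NOP58 higher, and the DKC1 groups are close, at a mean of 124 and 121 CPM.

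Of 11 tested snoRNP assembly factors and shared snoRNP proteins, 6 were lower and 1 higher, against 35.9% and 35.1% of all tested genes. RUVBL2, an ATPase of the R2TP chaperone complex that assembles snoRNPs, fell (-0.39), and so did SHQ1, the chaperone of dyskerin (-0.32). ZNHIT6, a box C/D assembly factor, rose (0.47).

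Abundant nucleolar proteins were mostly lower, 4 of 5, where 35.9% of all tested genes were lower. NOLC1, a nucleolar phosphoprotein that escorts snoRNPs, changed most, from 118 and 115 CPM to 87.1 and 84.6 CPM (-0.44, SE 0.0368, edgeR adjusted p 6.53e-13). NCL, nucleolin, which binds nascent ribosomal RNA, fell from 577 and 586 CPM to 502 and 494 CPM (-0.22, edgeR adjusted p 9.81e-09). MYBBP1A, a nucleolar protein, fell from 120 and 122 CPM to 108 and 110 CPM (-0.15, edgeR adjusted p 3e-04), and lost its call with library totals.

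NPM1, the most abundant of the 44 transcripts, fell by 8.0% (-0.12, edgeR adjusted p 1.35e-04), a call lost with upper-quartile factors and with library totals. Its 45 pseudogene rows took 1.22% of the counts of the family. DDX21, an RNA helicase of RNA polymerase I transcription and early processing, rose from 142 and 146 CPM to 156 and 155 CPM (0.11, edgeR adjusted p 0.00333), which was not called with filterByExpr or without a filter. The SE of these changes was about 0.03 on the log2 scale. The groups did not overlap in any of the 5 genes, a separation found in 84.3% of all tested genes.

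Small subunit factors had no common direction: 4 were lower, 5 higher and 3 not called, with a median log2 fold change of 0.02 that turned slightly negative under the other 3 filters. BYSL, needed for late maturation and export of the 40S precursor, went from 46.6 and 40.8 CPM to 31.3 and 30.8 CPM (-0.49, SE 0.057, edgeR adjusted p 1.51e-09). RRP9, the protein specific to the U3 snoRNP, fell from 46.6 and 45.0 CPM to 34.6 and 33.5 CPM (-0.43, edgeR adjusted p 2.57e-09). NOP14 (-0.29) and WDR3 (-0.14), of the small subunit processome, were also lower, WDR3 not with upper-quartile factors or library totals.

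RRP12, a HEAT-repeat protein of precursor export, rose from 38.5 and 39.7 CPM to 48.5 and 49.4 CPM (0.32, SE 0.0479, edgeR adjusted p 2.55e-07). UTP20 (0.26), UTP15 (0.23) and WDR43 (0.11), of the processome, and LTV1 (0.18), which escorts the late 40S precursor, were the other higher genes. Each of these 5 had both VIRMA-overexpressing libraries above both controls, as 42.7% of all tested genes did. UTP15, LTV1 and WDR43 lost their call with filterByExpr and without a filter, LTV1 and WDR43 also under DESeq2 and with a minimum of 10 counts per library, and LTV1 shares 34.8% of its exonic bases with other rows.

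UTP18 changed least, at 49.1 and 49.3 CPM against 49.5 and 48.3 CPM (log2 fold change -0.01, SE 0.0456, edgeR adjusted p 0.881). HEATR1 (0.05, edgeR adjusted p 0.493) and TSR1 (-0.10, edgeR adjusted p 0.101) were not called either, TSR1 being called lower under the other 3 filters. RRP12 and BYSL show the spread of the group in a ratio that needs no scaling between libraries: the RPKM of RRP12 was 0.218 and 0.257 times that of BYSL in the controls, against 0.408 and 0.423 times with raised VIRMA. Of 46 tested further small subunit factors, 24 were lower and 8 higher, with a median of -0.16. RIOK3, a kinase of late 40S maturation, rose (0.90), whereas TBL3 (-0.72) and TSR3 (-0.63) fell.

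Large subunit factors were lower in 9 of 12 genes, against 35.9% of all tested genes (median -0.19 on the log2 scale). GRWD1, a chaperone of the ribosomal protein RPL3, stood at 102 and 100.2 CPM in the controls but at 56.5 and 57.4 CPM with raised VIRMA. It fell by 43.6% (-0.83, SE 0.039, edgeR adjusted p 6.86e-20), at percentile 5.4 of all tested genes. NOP16 fell from 84.8 and 84.9 CPM to 60.9 and 57.9 CPM (-0.52, SE 0.0405, edgeR adjusted p 1.13e-13).

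PES1 (-0.29), BOP1 (-0.24) and WDR12 (-0.12), the 3 proteins of the PeBoW complex that processes the 60S precursor, were all lower, WDR12 close to the threshold at an edgeR adjusted p of 0.0468. EBNA1BP2 (-0.36), the ribosomal RNA methyltransferase NOP2 (-0.20), NIP7 (-0.19) and RRP1 (-0.11) were lower as well. The calls of WDR12, NIP7 and RRP1 were lost with upper-quartile factors and with library totals, and that of WDR12 also under DESeq2. PPAN (-0.13, SE 0.0983, edgeR adjusted p 0.231) was not called. It shares 59.8% of its exonic bases with other rows, one of them the read-through row PPAN-P2RY11, so its count is the least certain of the 44.

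GNL3, nucleostemin, a nucleolar GTPase known from stem and cancer cells, was the exception in this group. It rose from 139.9 and 134 CPM to 199 and 194 CPM, by 43.9% (0.525, SE 0.0336, edgeR adjusted p 3.97e-16), while its relative GNL2 stood at 53.7 and 55.9 CPM against 55.8 and 57.8 CPM (0.05, edgeR adjusted p 0.293) and was called higher only with upper-quartile factors and library totals. Per exonic length GNL3 was 4.51 and 4.13 times GNL2 in the controls, and 6.17 and 5.82 times with raised VIRMA. Against GRWD1 the ratio was 2.39 and 2.31 in the controls but 6.12 and 5.88 with raised VIRMA. GNL3 shares 3.9% of its exonic bases with other rows.

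Of 55 tested further large subunit factors, 24 were lower and 15 higher, with a median of -0.09. CCDC86 fell (-0.575), while MPHOSPH6 (0.665) and URB1 (0.58) rose. Genes of the RNA exosome, which trims the precursor, were listed together with cofactors and other exonucleases. Of these 15 tested genes 7 were lower and 4 higher, among them EXOSC4 (-0.70), EXOSC9 (-0.67), ISG20L2 (-0.66) and EXOSC8 (0.51). Over all 135 tested ribosome biogenesis genes outside the 44, 62 (45.9%) were lower and 30 (22.2%) higher, beside 63.6% and 22.7% of the 44. Their median log2 fold change was -0.09.

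Among the 44, shorter and more abundant transcripts tended to be lower. Over the 44 genes, Spearman's rho of the log2 fold change with exonic length was 0.42 (Pearson's r 0.41) and with the mean RPKM -0.44 (r -0.39), while over all 12205 tested genes rho was 0.08 with length and -0.30 with level. Genes in the same libraries share their depth and scaling, so these are descriptions across genes. The 22 shorter genes had a median of -0.26, with 16 lower and 4 higher, and the 22 longer ones a median of -0.11, with 12 lower and 6 higher. With the trend on length over all tested genes subtracted, the median of the 44 was -0.17. No trend on level was subtracted, though the 44 had a median of 17.8 RPKM in the controls against 4.87 over all tested genes. The part of level in their values was not tested.

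**Figure D4:**
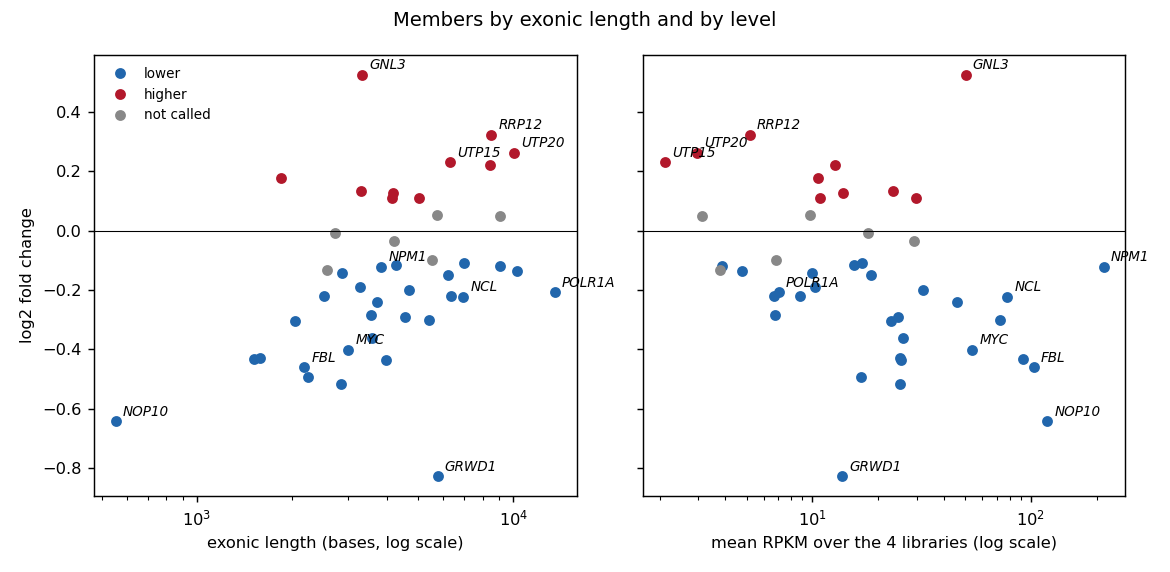
Log2 fold change (y axis) of the 44 genes against exonic length in bases (left) and mean RPKM over the 4 libraries (right), both on log axes and coloured by the edgeR call. Among the shortest and most abundant, NOP10 and FBL lie low, while RRP12, UTP20 and UTP15 are long, of low level and higher in VIRMA-overexpressing cells. Other genes go against these tendencies. POLR1A (13519 bases) and WDR3 (10275 bases) are long and lower, LTV1 (1847 bases) is short and higher, and GNL3 is abundant and higher.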

How the data were processed

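Poly-A-enriched RNA of 4 SKBR3 libraries was measured. Per the labels and the study's methods, the authors trimmed reads with Trimmomatic 0.39, aligned them to hg38 (Ensembl release 86) with STAR 2.5.2a and assigned them to genes with featureCounts. The deposited table holds raw counts beside exonic lengths. The kit was stranded, but the strand setting of the counting and the handling of multi-mapped reads are not given in the sources used here, so overlapping and near-identical genes are uncertain. Of the 44 genes, 22 share exonic bases with another row. Columns naming the control were matched to the control titles, and the remaining 2 columns to the only other group.

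For the filter on low values, RPKM was computed from counts, library totals and lengths. The RPKM values reported used TMM-normalized library sizes instead. Genes above 1 RPKM in 2 or more libraries (12205) were tested with edgeR 4.0.16 (R 4.3.3), quasi-likelihood test, TMM, group as the only term, Benjamini-Hochberg adjustment over all of them. The SE was derived from the fold change and its F statistic. DESeq2 1.42.0 and limma-voom (limma 3.58.1) were alternatives. The methods call the libraries biological duplicates. Replicates differed by more than sampling noise (chi-square per degree of freedom 7.87 and 6.18). The genes and lists were chosen with earlier results of these data known. Every one of the 44 may be named; values in every library are given for MYC and, in each role group, for the 3 with the largest and the 1 with the smallest absolute log2 fold change, and the 3 largest and those called against the list's median may be named from each other list. Promoter windows are from RefSeq (GRCh38.p14).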

Additional observations from a re-analysis of the deposited data

How the results depend on the processing

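MYC kept its direction and its call throughout. The other scalings and filters moved all shared genes by a median of -0.044 to 0.083. With upper-quartile factors the median log2 fold change was -0.074 over the 44 genes, -0.07 for RNA polymerase I transcription, -0.231 for box C/D and -0.296 for box H/ACA snoRNP proteins, -0.078 for abundant nucleolar proteins, 0.091 for small and -0.123 for large subunit factors. With library totals these were -0.062, -0.058, -0.219, -0.284, -0.066, 0.103 and -0.111. With filterByExpr they were -0.189, -0.185, -0.346, -0.411, -0.193, -0.024 and -0.238, unfiltered -0.18, -0.176, -0.336, -0.402, -0.184, -0.014 and -0.229, while a minimum of 10 counts per library gave -0.175, -0.171, -0.332, -0.397, -0.179, -0.01 and -0.224, so that the small subunit median turned negative under all 3 filters. Without the 22 genes that overlap another gene, the medians were -0.213, -0.207 (5 genes), -0.459 (FBL alone), -0.472 (2 genes), -0.172 (4 genes), 0.051 (6 genes) and -0.199 (3 genes), with 16 genes lower and 5 higher of 22. The length trend subtracted, the median over the 44 was -0.169. Genes called higher fell from 10 to 4 with filterByExpr and with no filter, settings for which no share over all genes is given. Past the fold-change threshold, 0 genes were lower and 0 higher. Upper-quartile factors and library totals reversed the sign of UTP18 (0.063 and 0.075) and of DKC1 (0.036 and 0.048), neither of which was called.

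Leaving out each library in turn, with the lone library assumed to vary like the other group, left 24 to 27 genes lower and 7 to 9 higher, and 59 to 61 lower and 28 to 29 higher among the other ribosome biogenesis genes. MYC ran from -0.42 to -0.385. The medians ran from -0.169 to -0.152 over the 44, -0.172 to -0.116 for RNA polymerase I transcription, -0.326 to -0.283 for box C/D, -0.383 to -0.357 for box H/ACA, -0.164 to -0.139 for nucleolar proteins, -0.002 to 0.037 for small and -0.213 to -0.183 for large subunit factors. The small subunit median was at -0.002 without eGFP control replicate 2. UTP18 (-0.026 to 0.009) and HEATR1 (-0.002 to 0.097) reversed without VIRMA-overexpressing replicate 2. Calls lost were those of POLR1C, UBTF, UTP15, WDR43, LTV1, WDR12 and RRP1 without eGFP control replicate 1 (edgeR adjusted p 0.0702 to 0.168), WDR43, LTV1, WDR12 and NIP7 without eGFP control replicate 2 (0.0673 to 0.146), UBTF, UTP15, WDR3, WDR12 and RRP1 without VIRMA-overexpressing replicate 1 (0.0575 to 0.109), and POLR1C, RRN3, WDR43, LTV1 and WDR12 without VIRMA-overexpressing replicate 2 (0.0542 to 0.177).

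Replicate numbers gave no pairing, as the deviations of same-numbered libraries from their group means correlated at 0.03. With the replicate number as a block MYC was at -0.40, and 28 genes were lower and 10 higher, the same genes as without it.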

Other observations

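Several of the 44 genes carry snoRNA genes in their introns, and 20 snoRNA rows of the count table lie wholly inside 9 of them. Rows that pool copies at several loci, such as the 7 that share bases with TAF1D, are not among the 20. Poly-A enrichment captures snoRNAs poorly, and 5 of the 20 rows had no count in any library. The 4 rows with at least 10 counts in every library, a limit set after their values were seen, are given here. Within GNL3, the SNORD19 row had 84 and 115 counts in the eGFP controls against 284 and 245 with raised VIRMA, and the SNORD69 row 39 and 59 against 113 and 118. Within NCL, the SNORD20 row had 29 and 48 counts against 19 and 18, and within TAF1D the SNORD6 row 28 and 19 against 36 and 29. In these 4 rows the groups did not overlap, SNORD6 only narrowly, at 0.34 CPM in a control against 0.35 with raised VIRMA. Such a separation was found in 84.3% of all tested genes, which had passed the filter on low values. Each of the 4 rows lay in the direction of its host gene. Within NOP58, which rose, the SNORD70 row, below the limit, had 8 and 4 counts against 4 and 1. No test was run on these low counts. Counts per gene do not tell reads of the snoRNA from reads of unspliced host RNA. The SNORD19 row also shares exonic bases with GNL3, so reads of spliced GNL3 RNA may be among its counts.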
